A study of Mus musculus with 16 samples.

Results

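H3K4me3 was compared between Dicer KO and Dicer WT lines of immortalized murine mesenchymal stem cells (MSCs), the stromal cells that can give rise to bone, cartilage and fat. The comparison used 4 of the 16 samples of the series: 2 ChIP-seq libraries of Dicer -/- cells (KO) and 2 of Dicer f/f cells (WT), numbered replicate 1 and 2 within a genotype. Both genotypes were of strain C57BL/6, were immortalized, were grown in the same medium with serum and received no other treatment in the labels, and WT cells carry the floxed but intact alleles. Each line is monoclonal, and the labels do not say whether the replicates came from separate cultures or clones. Genotype and clone therefore cannot be told apart, and every p-value measures only the spread between these libraries. Each library came with the authors' list of peaks against whole-cell extract (WCE, the chromatin before pull-down), and with a difference list, taken to hold its peaks against the library of the same number from the opposite genotype. Values are for chromosomes 1 to 19 in mm9. No mm9 gene annotation was used, so loci are given by position, and neither the Dicer locus nor stromal marker genes were examined.

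H3K4me3, trimethylation of lysine 4 of histone H3, is laid down by the SET1 and MLL methyltransferases and flanks the start sites of active and poised genes, most of them at CpG islands. Strong promoters usually carry a peak of a few kilobases, while weak or distal sites tend to carry narrower ones. Dicer processes microRNA hairpins into the mature, active microRNAs, among them the let-7 family that the series title names together with its target Nr6a1.

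KO libraries listed more H3K4me3 peaks than the WT library of the same number. Measured in log2, however, replicate 2 exceeded replicate 1 within each genotype by more than KO exceeded WT. The lists held 16267 peaks in KO replicate 1, 23215 in KO replicate 2, 12314 in WT replicate 1 and 17755 in WT replicate 2. They covered 31.5 and 51.3 Mb in KO and 24.3 and 42.8 Mb in WT. The genotypes overlapped in both measures, since WT replicate 2 lay above KO replicate 1. On the log2 scale the KO mean lay 0.39 above the WT mean for peak number and 0.32 above it for covered length (exact two-sided permutation test, p = 0.667 for each, n = 2 per genotype). The smallest p that 2 against 2 libraries allow is 0.333. The peak number difference ranged from 0.13 without WT replicate 1 to 0.66 without WT replicate 2, and was 0.14 and 0.65 without KO replicates 2 and 1. The covered length difference turned to -0.090 without WT replicate 1 and to -0.035 without KO replicate 2, and was 0.67 and 0.73 without KO replicate 1 and WT replicate 2. No read counts were used, so sequencing depth is unknown, and its part in these differences was not tested.

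Most peaks had a width usual for promoter peaks, though promoters themselves were not examined. The median peak width was 1775 and 1838 bp in KO replicates 1 and 2, against 1823 and 2161 bp in WT replicates 1 and 2. WT replicate 2 stood above the other 3 libraries, which lay close together (mean log2 ratio KO to WT -0.14, exact permutation p = 0.667, -0.26 without WT replicate 1, -0.013 without WT replicate 2). Peaks of 1 to 5 kb made up most of every list. Those of 1 to 2 kb were 42.6% and 40.5% of the KO lists and 41.2% and 34.2% of the WT lists, and those of 2 to 5 kb were 39.9% and 41.5% against 40.5% and 50.0%. Peaks of 5 kb or more followed the replicate number, with 208 and 172 in replicate 1 of KO and WT and 931 and 808 in replicate 2. In the narrow class below 1 kb, the KO lists held 2646 and 3237 peaks and the WT lists 2080 and 2007. As shares of the lists these were 16.3% and 13.9% in KO and 16.9% and 11.3% in WT.

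**Figure D1:**
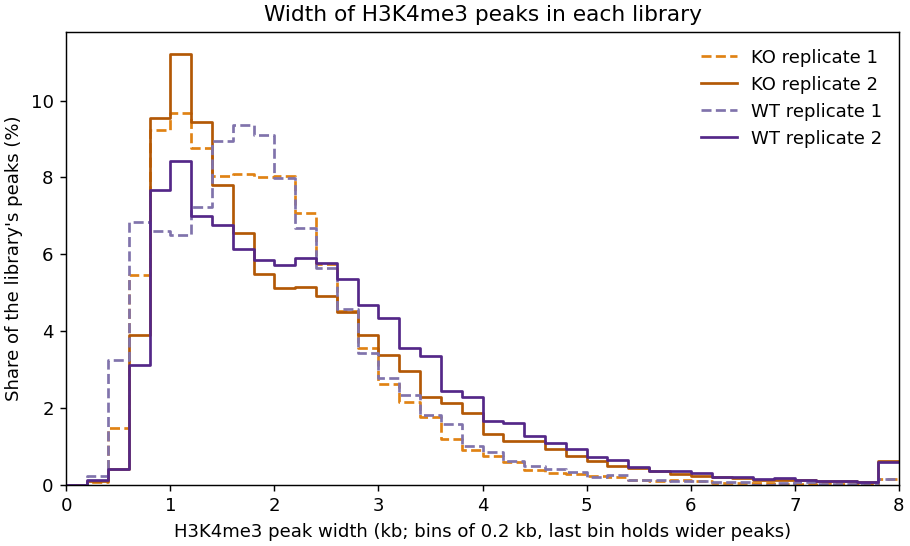
Share of each library's H3K4me3 peaks (vertical axis, percent) by peak width (horizontal axis, kb), with KO in orange, WT in purple, replicate 1 dashed and replicate 2 solid. The KO replicate 2 line has the highest peak near 1 kb, and the WT replicate 2 line, with a median of 2161 bp, carries the largest share between 2 and 5 kb.

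The authors' score, used here to rank peaks within a list, went with width in every library. A score of 3100, shared by many of the strongest peaks, or above was reached by 41.6% and 43.8% of the KO peaks and by 42.7% and 56.4% of the WT peaks. The mean difference was -6.81 percentage points (exact permutation p = 0.667, n = 2 per genotype), and it was 0.0301 points without WT replicate 2 and -13.6 points without WT replicate 1. Of peaks of 2 to 5 kb, 81.8% and 86.7% in KO and 80.02% and 92.7% in WT stood at that score. Below 1 kb the shares ran from 0% to 0.113%. Narrow peaks were thus the bottom of each list, with a median percentile of 7.12 to 11.5.

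Peaks lay closer together in the KO lists than in the WT list of the same number. The median gap to the next peak was 39571 and 30243 bp for KO and 51240 and 39965 bp for WT. The groups did not overlap, though KO replicate 1 and WT replicate 2 were nearly equal (mean log2 ratio -0.39, exact permutation p = 0.333, the smallest possible; -0.58 and -0.57 without KO replicate 1 and WT replicate 2, -0.19 and -0.21 without KO replicate 2 and WT replicate 1). When each list was limited to its 12314 highest-scoring peaks, the difference was -0.071 and the groups overlapped (exact permutation p = 0.667, n = 2 per genotype). Gaps of up to 1 kb followed the replicate number, with 6.88% and 7.52% of gaps in replicate 1 of KO and WT and 3.32% and 2.67% in replicate 2. Among regions listed in all 4 libraries, 8.92% and 8.23% were split into 2 or more peaks in replicate 1 of KO and WT, against 0.919% and 1.37% in replicate 2.

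Merging the overlapping peaks of the 4 lists gave 24560 regions, of which 10768 (43.8%) were listed in all 4 libraries. Regions listed in both KO libraries and in neither WT library numbered 1553 (6.32% of regions), and the reverse held for 65 (0.265%). The median region was 1309 bp wide in the KO set, 1853 bp in the WT set and 2998 bp among those listed in all 4 libraries. Leaving out a library drops a condition from the definition, so a rise in these counts is built in, and only its size differed. Without KO replicate 1 the KO count was 6665, and without WT replicate 2 it was 4105. Without KO replicate 2 and WT replicate 1 it was 1874 and 1571. The WT count was 1152 without WT replicate 1 and 505 without KO replicate 2. Without WT replicate 2 and KO replicate 1 it was 90 and 66. A further 5100 regions were listed in KO replicate 2 alone, 1086 in WT replicate 2 alone, and 2654 in both libraries numbered 2 and in neither numbered 1. The converse, a region of both libraries numbered 1 that neither numbered 2 held, did not occur.

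**Figure D2:**
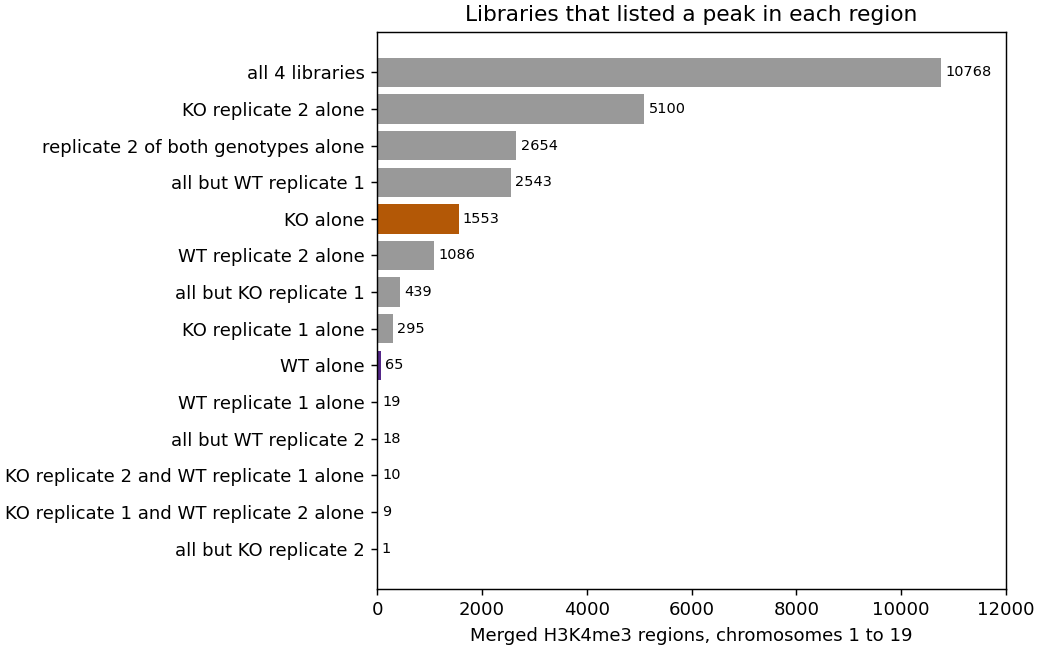
Number of merged H3K4me3 regions (horizontal axis) by the set of libraries that listed a peak in them, with the KO set in orange and the WT set in purple. Regions listed in all 4 libraries (10768) are the largest set, and the KO set (1553) is larger than the WT set (65) but smaller than the set of KO replicate 2 alone (5100).

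KO replicate 1 and WT replicate 2 came closest in list length, and each held regions that the other lacked. KO replicate 1 listed 15187 regions, of which 1866 (12.3%) had no peak in the longer list of WT replicate 2. WT replicate 2 listed 17565 regions, of which 4244 (24.2%) had none in KO replicate 1 and 1161 (6.61%) had none in KO replicate 2. WT replicate 1, the shortest list, had almost nothing of its own, since 85 of its 11320 regions (0.751%) were absent from KO replicate 2 and 533 (4.71%) from KO replicate 1.

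The difference in list length was removed by keeping the 12314 highest-scoring peaks of each list. The regions listed in KO alone then numbered 415 and those in WT alone 259, out of 13823. Of the 415, only 84 (20.2%) also lacked any WT peak in the full lists, and of the 259 WT regions 41 (15.8%) lacked any KO peak. Most regions that set the genotypes apart by rank therefore held a lower-ranked peak in the other genotype. The list of WT replicate 1 holds 12314 peaks and was not cut. For the KO regions the WT peaks that the full lists restored were thus those of WT replicate 2. The excess of KO regions over WT regions kept its direction in the equal lists and was much smaller than in the full lists.

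Nearly all of the strongest peaks met a peak in the other genotype, and far fewer of the lowest-scoring ones did. Of the 6775 peaks of KO replicate 1 scoring 3100 or above, 99.6% met a peak in WT replicate 1 and 99.9% one in WT replicate 2. Of its lowest-scoring 25% (4067 peaks), 16.8% and 60.5% did. In KO replicate 2 the share met by WT replicate 2 fell from 99.8% of the top-scoring peaks to 20.4% of the lowest 25%. The WT lists looked different from the KO side: of the lowest 25% of WT replicate 1 peaks, 83.0% and 97.5% met a peak in KO replicates 1 and 2, and of those of WT replicate 2, 36.6% and 79.6% did. Peaks of the lowest 25% were also often unmatched within a genotype. Of those of KO replicate 2, 12.5% met a peak in KO replicate 1, and the reverse share was 92.7%. Of those of WT replicate 2, 2.82% met a peak in WT replicate 1, and the reverse share was 98.5%. At the other end, 24 of the 10163 top-scoring peaks of KO replicate 2 met no peak in WT replicate 2, and 33 of the 10007 top-scoring peaks of WT replicate 2 met none in KO replicate 2. Against the shorter lists the exceptions were more, 209 of the 10163 with no peak in WT replicate 1 and 322 of the 10007 with none in KO replicate 1.

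The difference lists placed more regions on the KO side. KO-higher regions, those with a peak in the KO difference list of a replicate and none in the WT one, numbered 5138 (20.9% of regions) in replicate 1 and 5907 (24.1%) in replicate 2. WT-higher regions numbered 1618 (6.59%) and 1214 (4.94%). Calls recurred in both replicates at 2709 KO-higher regions (11.0%), which were 52.7% of the replicate 1 calls and 45.9% of the replicate 2 calls. On the WT side 257 (1.05%) recurred, 15.9% and 21.2% of the calls. Opposite calls were rare: 16 regions (0.0651%) turned from KO-higher in replicate 1 to WT-higher in the other, and 19 (0.0774%) did the reverse. Over the equal-length lists, which gave 13823 regions instead of 24560, the recurrent counts were 879 KO-higher and 252 WT-higher. The KO count fell while the WT count hardly moved. As a share of regions, KO-higher calls fell and WT-higher calls rose.

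Recurrent KO-higher calls were most frequent among regions of 1 to 2 kb, and recurrent WT-higher calls among those of 2 to 5 kb. Of regions below 1 kb, 320 of 3489 (9.17%) were KO-higher and 4 (0.115%) WT-higher. Of regions of 1 to 2 kb, 1890 of 9786 (19.3%) were KO-higher in both replicates and 95 (0.971%) WT-higher. Of regions of 2 to 5 kb the shares were 4.81% and 1.44%, and of the 1124 regions of 5 kb or more 10 (0.890%) were KO-higher and 12 (1.07%) WT-higher. The 2709 KO-higher regions were seldom prominent in the KO lists. Their strongest peak had a median percentile of 19.2 in KO replicate 1, which listed 75.3% of them, and of 35.4 in KO replicate 2, which listed 98.8%. The 257 WT-higher regions stood at a median percentile of 19.5 in WT replicate 1 and at the 3100 score in WT replicate 2, where 61.9% of them reached it, beside 56.8% of all regions listed there. Many called regions also held a peak in the opposite genotype. KO replicate 2 listed 73.5% of the WT-higher regions, beside 94.0% of all regions. WT replicate 2 listed 30.7% of the KO-higher regions, beside 71.5% of all regions.

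KO and WT differed little in the width of the peaks that all 4 libraries shared, with a small lean to KO within each replicate number. The median length covered in the 10768 shared regions was 2244 and 2872 bp for KO and 1994 and 2816 bp for WT. Replicate 2 was thus above replicate 1 in each genotype, and the genotypes overlapped (mean log2 ratio of medians 0.10, exact permutation p = 0.667, n = 2 per genotype). The ratio turned to -0.08 without KO replicate 2 and to -0.15 without WT replicate 1, and was 0.28 and 0.35 without KO replicate 1 and WT replicate 2. Within replicate 1 the median log2 ratio of KO to WT was 0.15 and 74.2% of regions were wider in KO, while within replicate 2 it was 0.03 and 60.2% were. Across the numbers the ratio was -0.32 for KO replicate 1 over WT replicate 2 and 0.51 for KO replicate 2 over WT replicate 1, so the replicate number moved widths more than the genotype did. Regions wider in KO in both replicates numbered 5231 (48.6%), and those wider in WT in both numbered 1518 (14.1%). Only 11 regions were at least 2 times wider in KO in both replicates, and 3 at least 2 times wider in WT.

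**Figure D3:**
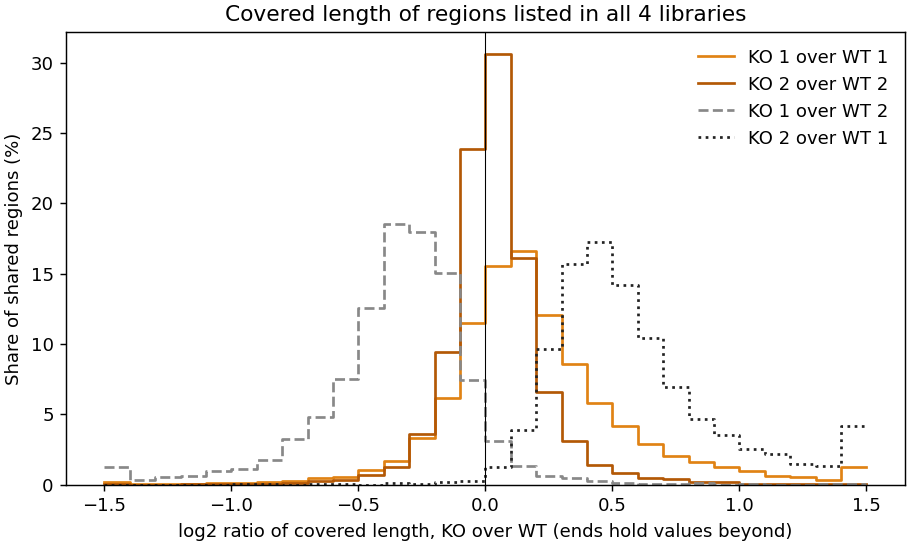
Share of the 10768 shared regions (vertical axis, percent) by the log2 ratio of the length covered in KO to that in WT (horizontal axis), with pairs of the same number as solid lines and pairs across numbers as broken lines. The same-number pairs centre near 0 (medians 0.15 and 0.03) and the crossed pairs at -0.32 and 0.51.

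Shared regions with a difference call were mostly wider in the genotype called higher, least so for the WT-higher calls of replicate 1. In replicate 2 the 160 KO-higher shared regions covered a median of 2153 bp in KO and 1589 bp in WT, and 95.6% were wider in KO. The 98 WT-higher ones covered 1927 bp in KO and 2699 bp in WT, and 96.9% were wider in WT. In replicate 1 the 686 KO-higher regions had a median log2 ratio of KO to WT of 0.74, against 0.40 in replicate 2, and 97.5% of them were wider in KO. The 1172 WT-higher regions of replicate 1, however, covered a median of 2365 bp in KO and 2478 bp in WT, and 58.2% were wider in WT. Shared regions without a call leaned to KO, most in replicate 1. There 76.7% of them were wider in KO and 23.3% in WT, and in replicate 2 the shares were 60.2% and 39.6%. These 1172 regions were themselves wide, with a median of 3610 bp, and 45 shared regions were WT-higher in both replicates.

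Regions gained in KO were defined as those listed in KO alone and KO-higher in both replicates, which held for 1232 (5.02% of regions). Gains in WT, defined the same way, numbered 61 (0.248%). Both definitions use the lists that are then described, so the values of these regions are a description of size. KO gains had a median width of 1342 bp and a median percentile of 15.2 and 32.0 in KO replicates 1 and 2, and 0.893% of them reached the 3100 score in replicate 2. WT gains had a median width of 1985 bp and median percentiles of 14.0 and 38.6, and 32.8% of them reached that score in WT replicate 2. In replicate 1 the shares at that score were 0.244% of KO gains and 1.64% of WT gains. Of all regions listed in replicate 2, 43.95% in KO and 56.8% in WT reached it. KO gains lay at a median of 45740 bp from the nearest shared region, WT gains at 108079 bp, and all regions at 36173 bp, so that 55.7% of WT gains and 27.8% of KO gains lay over 100 kb away, beside 23.1% of all regions. Some other sets also lay further away than all regions. Regions listed in both libraries numbered 2 alone were at 43644 bp (26.3% over 100 kb away). Those in WT replicate 2 alone were at 65010 bp (38.3%) and those in all but KO replicate 1 at 79791 bp (42.4%). Regions in all but WT replicate 1 were nearer, at 30368 bp (18.1%).

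By definition no KO gain had a WT peak. The 12 highest-ranked were wider than the median KO gain (1342 bp), which the ranking favours, since score went with width. The leading region, chr1:90404191-90407256, held 2875 and 2925 bp of peak in the KO libraries, with no WT peak. It was followed by chr11:54773913-54776868 (2590 and 2822 bp) and chr15:41582699-41586044 (3264 and 3232 bp). The widest of the leading set, chr2:118998597-119002603, was covered over 3972 and 3918 bp, nearly the same in both KO libraries. The other 8 were covered over 1741 to 3361 bp and lay at chr5:150443588-150446339, chr17:13818695-13821748, chr3:144634056-144636337, chr5:136145058-136147754, chr5:58968557-58970766, chr12:86229781-86232029, chr17:35688059-35691036 and chr2:135566511-135569933.

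Their surroundings ranged from close to shared H3K4me3 regions to isolation. The chr5:150443588 region lay 3077 bp and the chr11 region 3533 bp from a shared H3K4me3 region, whereas chr5:58968557-58970766 was 620937 bp from the next H3K4me3 region of any library. At chr17:35688059-35691036 the libraries ranked the peak differently, with a score of 3100 in KO replicate 1 and 538 in KO replicate 2. The widest KO gain of all, chr16:43698080-43703282, was covered over 4270 and 5203 bp in KO. The next after chr2:118998597, chr8:113310384-113314700, was covered over 3424 and 4126 bp and lay 430 bp from a shared region.

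H3K36me3, the mark of transcribed gene bodies, was listed within 10 kb of 7 and 5 of the 12 leading KO gains in the KO libraries and of 1 and 3 in the WT libraries. The shares among all regions were 32.8% and 38.3% for KO and 37.1% and 46.9% for WT. Among all 1232 KO gains they were 16.3% and 20.05% in KO and 16.9% and 25.3% in WT, so the KO libraries were not ahead there. At chr1:90404191-90407256 it covered 7240 bp in KO replicate 1 and was not listed in the other 3 libraries. At chr2:135566511-135569933 it covered 1256 and 1917 bp in KO and was not listed in WT. H3K27me3, the mark of Polycomb repressive complex 2, was listed within 10 kb of none of the 12 in any of the 4 libraries. Its share within 10 kb over all regions was also low, at 1.21% and 15.3% in KO and 5.15% and 17.4% in WT, and KO replicate 1 held only 698 H3K27me3 peaks.

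**Figure D4:**
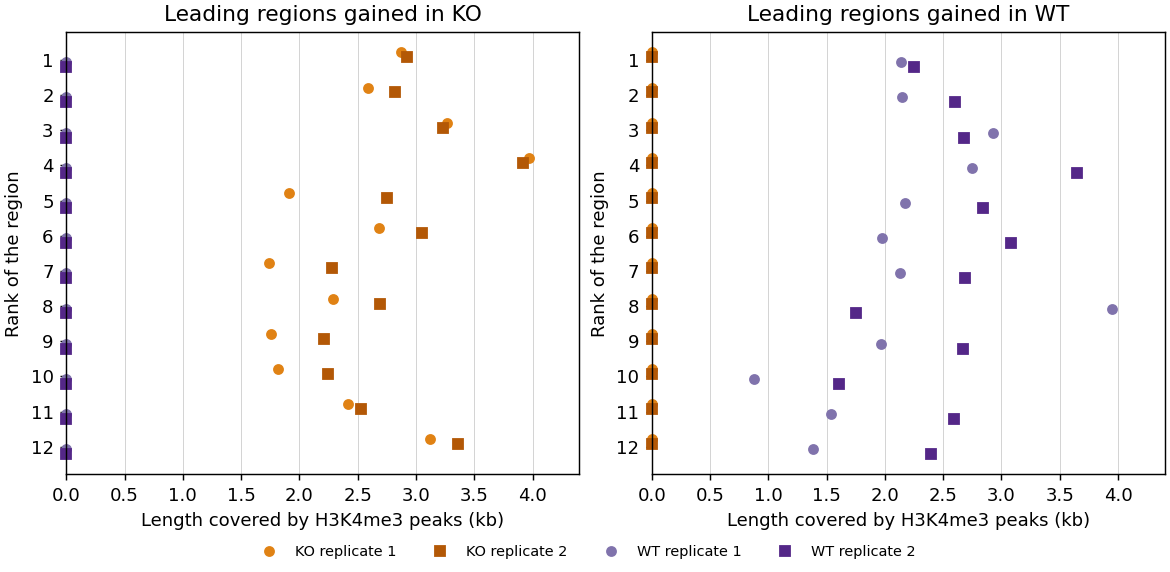
Length covered by H3K4me3 peaks (horizontal axis, kb) in each of the 4 libraries at the 12 highest-ranked regions gained in KO (left) and in WT (right), in rank order as in the text, with KO in orange, WT in purple, replicate 1 as circles and replicate 2 as squares. KO gains reach from 1741 to 3972 bp in the KO libraries and WT gains from 878 to 3946 bp in the WT libraries, with the other genotype at 0.

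The leading WT gains were of the same size but less even between replicates. The first, chr12:105930905-105933171, was covered over 2136 and 2247 bp in the WT libraries, with no KO peak. The region chr11:45869012-45871614 was covered over 2148 and 2603 bp, and chr4:17779715-17782803 over 2924 and 2683 bp. At chr12:50490573-50494518 replicate 1 was the wider, with 3946 bp against 1750 bp, while at the narrowest, chr17:26799522-26801130, replicate 1 covered 878 bp and replicate 2 1609 bp. The other 7, at chr12:86214647-86218295, chr15:41661760-41664597, chr6:65621201-65624283, chr11:31268017-31270708, chr3:32715614-32718284, chr3:69401067-69403656 and chr11:33412055-33414446, were covered over 1384 to 3649 bp and were wider in replicate 2 throughout. The widest WT gain by mean coverage, chr9:72538566-72544617, rested on replicate 2, with 6052 bp against 1327 bp in replicate 1. The third by width, chr8:70642416-70645924, was covered over 2934 and 3056 bp.

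H3K27me3 was listed within 10 kb of 5 of the 12 leading WT gains in KO replicate 2, of 5 in WT replicate 2 and of none in replicate 1 of either genotype. Over all regions the replicate 2 shares were 15.3% and 17.4%, and the difference was not tested. At chr11:45869012-45871614 H3K27me3 covered 2146 bp of the region in KO replicate 2 and was not listed in WT. At chr6:65621201-65624283 it covered 2513 bp in KO replicate 2 and 2821 bp in WT replicate 2, so there the mark was listed with and without the H3K4me3 peak. H3K36me3 was listed near 4 and 4 of the 12 in KO and near 3 and 4 in WT. At chr15:41661760-41664597 it ran against the H3K4me3 listing, with 11661 and 13232 bp within 10 kb for KO and 0 and 4573 bp for WT.

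Over all gains, H3K27me3 overlap depended on the library. H3K27me3 in WT replicate 2 overlapped 19 of the 61 WT gains (31.1%), 23 of the 1232 KO gains (1.87%) and 9.05% of all regions. In KO replicate 2 the shares were 18.03%, 0.731% and 5.63%, in WT replicate 1 they were 9.84%, 0.487% and 3.36%, and in KO replicate 1 they were 0%, 0.0812% and 0.574%. WT gains did not stand alone, since H3K27me3 in WT replicate 2 also overlapped 27.1% of regions listed in WT replicate 2 alone and 39.0% of those listed in all but KO replicate 1. H3K36me3 within 10 kb was listed around fewer gains of either kind, as a share, than around all or shared regions. In WT replicate 2 it was listed near 25.3% of KO gains, 27.9% of WT gains, 46.9% of all regions and 71.8% of shared regions, and in KO replicate 2 near 20.05%, 18.03%, 38.3% and 60.7%. Gains did not stand alone in this either. In WT replicate 2 the share was 24.7% for regions listed in both libraries numbered 2 alone. It was 29.0% for those listed in KO replicate 2 alone and 22.5% for those in WT replicate 2 alone. These shares are counts of neighbouring regions in single libraries, and the differences between the sets were not tested.

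Some regions listed in every library changed mostly in width. The largest KO shift was at chr6:125371672-125377339, covered over 4961 and 5668 bp by KO peaks and 810 and 2383 bp by WT peaks (log2 ratios 2.61 and 1.25 in replicates 1 and 2). At chr13:23589776-23599242, a region of 9467 bp, KO peaks covered 8974 and 9280 bp, and WT peaks 1641 and 5444 bp. The region chr6:137466243-137469634 was covered over 3392 and 2970 bp in KO against 797 and 1326 bp in WT. There H3K36me3 covered 9167 and 7453 bp in KO, counted over the region and 10 kb on each side, with none listed in WT. The remaining leading KO shifts, chr2:179957957-179961165 and chr7:86990249-86993833, had mean log2 ratios of 1.54 and 1.52. In all 5 both KO libraries covered more than either WT library, and the ratio was larger in replicate 1 than in replicate 2.

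On the WT side the largest shift was at chr4:63703615-63709399, covered over 1233 and 1941 bp by KO peaks and 3617 and 5785 bp by WT peaks, with log2 ratios of -1.55 and -1.58 that hardly differed between replicates. At chr2:71891481-71896245 KO peaks covered 831 and 1989 bp, and WT peaks 2513 and 4765 bp. There H3K27me3 covered 3264 bp of the region in KO replicate 2 and was not listed in the other 3 libraries. The same was seen at chr17:25704655-25708826, where H3K4me3 covered 948 and 1356 bp for KO against 1555 and 4172 bp for WT. There H3K27me3 covered 3317 bp in KO replicate 2 alone. The other leading WT shifts, chr14:22804432-22809658 and chr7:91676713-91680520, had mean log2 ratios of -1.29 and -1.14. The groups overlapped at the chromosome 14 region, where KO replicate 2 covered 3598 bp and WT replicate 1 covered 2191 bp and did not overlap at the other 4.

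Clusters of called regions were looked for in each direction. Joined where they were at most 100 kb apart, the 2709 KO-higher regions formed 1929 clusters, and 1286 of them (47.5%) shared a cluster with another. The 257 WT-higher regions formed 242 clusters, with 29 regions (11.3%) in company. A set with more regions has shorter distances between them, so these shares do not compare like with like. The largest KO cluster, chr7:52660291-52817477, held 7 KO-higher regions among 14 over 157 kb, of which 7 were listed in KO replicate 2, 5 in KO replicate 1, 1 in WT replicate 2 and none in WT replicate 1. It also held 6 shared regions and 12 to 14 H3K36me3 peaks in each library.

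The next KO clusters held 6 KO-higher regions each. At chr1:154938608-155148499, 6 of 8 regions were KO-higher and none of the 8 was shared, and the 6 covered 5934 and 9813 bp in the KO libraries and had no WT peak. The cluster chr8:129056105-129219486 covered 7442 and 10538 bp for KO and 0 and 3332 bp for WT. The others were chr16:31412274-31639227, which had no H3K36me3 peak in any library, and chr3:108569647-108815158, which had 13 to 17. The largest WT cluster, chr12:50483290-50503272, packed 3 WT-higher regions into 19.98 kb, none listed in KO, which covered 7289 and 4729 bp in WT. Of the 13 WT clusters of 2 regions, the 4 with the shortest span lay at chr14:29317126-29325750, chr2:54287302-54297110, chr14:61655962-61666072 and chr14:22804432-22815499, and all 4 were listed in KO replicate 2 as well, over 1960 to 5060 bp.

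KO-higher regions outnumbered WT-higher ones on every one of the 19 chromosomes. The KO-higher share of a chromosome's regions ran from 3.47% on chromosome 9 (43 of 1238) to 15.1% on chromosome 18 of 737 regions, beside 11.0% over all. The WT-higher share ran from 0.339% on chromosome 10 to 2.18% on chromosome 14, and on chromosome 9 it was 2.02%. Chromosome 12 was high on both sides, with 14.8% KO-higher and 1.75% WT-higher, and it held 9 of the 65 regions listed in WT alone. Differences between chromosomes were not tested.

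**Figure D5:**
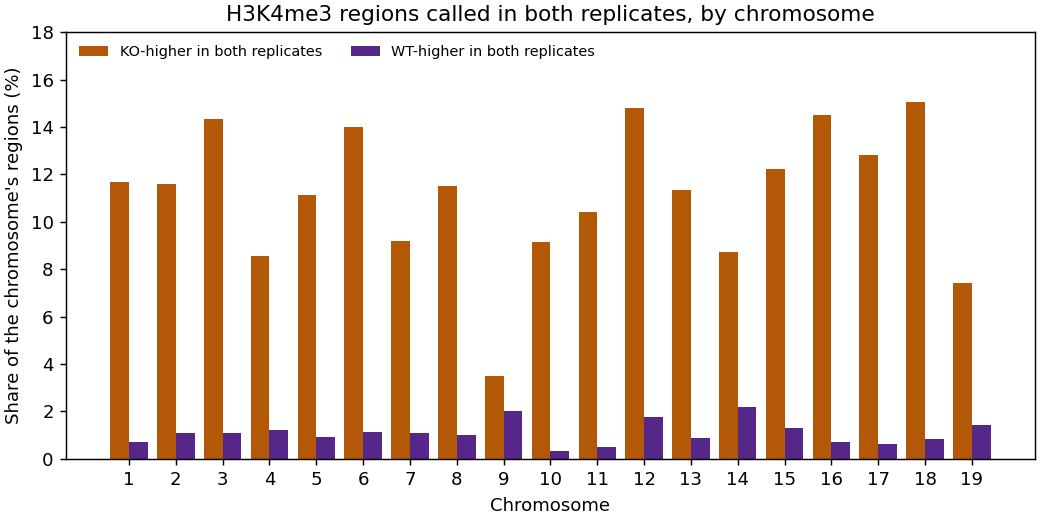
Share of each chromosome's H3K4me3 regions (vertical axis, percent) that were KO-higher (orange) or WT-higher (purple) in both replicates. The orange bar is lowest on chromosome 9, at 3.47%, and highest on chromosome 18, at 15.1%, and the purple bars lie between 0.339% and 2.18%.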

How the data were processed

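Crosslinked chromatin was pulled down with an anti-H3K4me3 antibody and sequenced, per the labels' protocols. Per the submitters' processing notes, Bowtie 0.12.7 aligned the reads to mm9 and MACS called the peaks. The authors deposited peaks with a score that is never under 80, used here for filters and for ranks inside 1 list. The sources used here give neither the MACS version nor the formula of the score. Lists were called per library, and depth is not known from them. No source used here names what the difference lists were called against. The library of the same number from the opposite genotype was assumed. That 74.4% to 97.6% of difference peaks had the coordinates of a peak of their own library bears on the library called, not on its control. In KO replicate 1, 1435 of the 5614 difference peaks overlapped no peak of that library's own list. In each difference list, 1 peak overlapped the opposite list of the same number, and 17 to 22 overlapped that of the other number. The control itself was not tested. Every KO-higher or WT-higher direction rests on the assumed control.

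Peaks on chromosomes 1 to 19 were merged into regions where they overlapped or touched, and a region counted as listed with an overlap of at least 1 bp (Python 3.11.15, numpy 2.4.6). The code was tested on simulated lists. Library values were compared with an exact two-sided permutation test, and repeated with a higher score minimum, equal-length lists, joined peaks, a stricter overlap, chromosome X and each library left out. Unplaced contigs and the difference lists of other marks were not used. Positions are 1-based. The leading gains are the 12 per direction with the highest mean percentile over both libraries, ties going to the larger covered length, and the 3 widest. Shared shifts are the 5 per direction with the largest mean log2 ratio, and clusters the 5 with most regions, ties going to the shorter span. Members and rules were chosen with earlier results of these data known. Gene names, markers and sequences need an mm9 reference and were not used here.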

Additional observations from a re-analysis of the deposited data

Results flagged for a closer look

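H3K4me3 peaks were also listed outside chromosomes 1 to 19. On chromosome X, 23 of 644 regions (3.57%) were called KO-higher in each replicate and 25 (3.88%) were called WT-higher, beside 11.0% and 1.05% on the other chromosomes analysed, and the difference was not tested. Of the X regions, 21 were listed in KO alone and 6 in WT alone. Unplaced contigs, which entered no comparison, held 25 and 33 peaks in KO replicates 1 and 2 and 18 and 26 in WT replicates 1 and 2.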

How the results depend on the processing

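With scores of at least 160, regions listed in KO alone fell to 1009, and recurrent KO-higher regions to 1285 and recurrent WT-higher ones to 156. With equal-length lists, which gave 13823 regions, the counts were 415 in KO alone, 259 in WT alone and 879 KO-higher. There, 2 differences changed sign, the median width at 0.11 (log2) and the share of top-scoring peaks at 6.80 points. Spacing moved to -0.071 and covered length to 0.11. The equal lists hold fewer peaks by construction. Leaving out each library in turn gave log2 ratios of 0.13 to 0.66 for peak number, -0.090 to 0.73 for covered length, -0.26 to -0.013 for median width, -0.58 to -0.19 for spacing and -0.15 to 0.35 for the shared regions, and -13.6 to 0.0301 points for the top score. The counts were 1571 to 6665 in KO alone and 66 to 1152 in WT alone, where each omission also drops a condition of the definition. Leaving out a replicate number removes both difference lists of that number and leaves the calls of the other. These were 5138 to 5907 KO-higher and 1214 to 1618 WT-higher regions. Including chromosome X changed no sign and no count by over 1.5 times among the 10 results. Joining peaks less than 1 kb apart did not among the 9 results run, nor did asking for 25% of a region to be covered among the 4 counts, or allowing opposite difference peaks among the 2 difference counts. With the replicate number as a block, the 6 differences between libraries kept their values (0.39, 0.32, -0.14, -0.39 and 0.10 on the log2 scale and -6.81 points), each with an exact sign-flip p = 0.5, the smallest that 2 pairs allow. Same-numbered libraries deviated together over the shared regions (correlation 0.27), but the labels give them only a number in common.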

Other observations

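Gains of opposite direction lay close together at a few loci, which were looked for after the leading regions were seen. On chromosome 12 the WT gain chr12:86214647-86218295, covered over 2750 and 3649 bp in WT, lay 11.5 kb from the KO gain chr12:86229781-86232029, covered over 1819 and 2249 bp in KO, with 1 shared region between them. H3K36me3 within 10 kb of that KO gain covered 1885 and 2090 bp for KO and 0 and 1524 bp for WT. On chromosome 13 the WT gain chr13:94943513-94945627 (1909 and 1385 bp) lay 17.9 kb from the KO gain chr13:94922360-94925620 (2570 and 3261 bp), with no region between them and neither H3K36me3 nor H3K27me3 listed within 10 kb in any library. On chromosome 15 the gap between chr15:41661760-41664597 and chr15:41582699-41586044 was 75.7 kb, and 1 shared region lay in it. The closest pair, 5.61 kb apart, was chr12:46174546-46175960 and chr12:46181567-46182553, a WT gain of 1132 and 1415 bp and a KO gain of 925 and 893 bp. In all, 8 of the 61 WT gains (13.1%) had a KO gain within 100 kb. Over all regions the share was 17.5%, and the difference was not tested.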
